A study of Mus musculus with 14 samples.

Results

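Nuclei of mouse hearts that had received the transcriptional coactivator YAP5SA were compared with nuclei of hearts that had received the transcription factor MEF2A, across all expressed genes. The comparison takes 3 YAP5SA libraries and 4 MEF2A libraries, 7 of the 14 libraries in the series, and 17987 of 54446 genes passed the filter on low counts and were tested. Wild-type ICR mice, an outbred strain, were injected intraperitoneally on postnatal day 7 with the adeno-associated virus AAV9:cTnT-YAP5SA or AAV9:cTnT-hMEF2A, each at 1E11 genome copies, and hearts were taken on postnatal day 12, at the same age in both groups. The cTnT promoter, of cardiac troponin T, restricts both transgenes to cardiomyocytes. Nuclei were enriched for PCM1, a protein of the cardiomyocyte nuclear rim, before polyA RNA was extracted. The 5 Control libraries came from ICR hearts of the same age without any virus, so neither virus group has a control that carried an empty virus, but each serves as a virus-treated counterpart of the other. The hMEF2A transgene is human, the species of YAP5SA is not given, and reads of either need not fall on the mouse gene. Whether each library is a separate mouse is not stated, so the p-values speak of variation among libraries, part of which may be technical.

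YAP is the output arm of the Hippo pathway: the kinases LATS1 and LATS2 phosphorylate it and keep it out of the nucleus, and in the nucleus it binds TEAD factors at target genes. The 5SA form lacks the serines that these kinases phosphorylate and so escapes the brake. MEF2A belongs to a family that binds an AT-rich site in genes of the contractile and metabolic apparatus of muscle, and in the days after birth mouse cardiomyocytes leave the cell cycle while that apparatus matures. Both viruses thus act in the same cell type, one through a growth regulator and the other through a factor of muscle differentiation.

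Total counts of the 7 libraries lay between 16218326 and 21069499. The mitochondrial chromosome took 3.80%, 6.77% and 32.2% of counts in YAP5SA 1 to 3, and 14.8%, 16.3%, 15.7% and 23.2% in MEF2A 1 to 4. Libraries 1 and 2 of both groups were batch 1 in the labels, and the others were batch 2, which holds a single YAP5SA library. In Controls 1 and 2, the batch 1 Controls, the mitochondrial chromosome took 60.7% and 67.5% of counts. In Controls 3 to 5 it took 5.54% to 13.9%. All 5 enter the fit and every value against Control. Without Controls 1 and 2, 3968 genes were called, against 2679 with them. By Xist and the Y-linked transcript Ddx3y, all 3 YAP5SA libraries were male, and MEF2A held 3 female and 1 male library, so sex is partly tied to the comparison. In batch 1 both YAP5SA libraries were male and both MEF2A libraries female, so within that batch sex and virus cannot be told apart. With sex read from Xist and Ddx3y as a further term, 2406 genes were called, of which 1793 were among the 2679 called without it. Of the genes named below, Mef2a, Slc36a2, Tead1, Hdac9, Nppb, Zmat3, Cdkn2c, Dcn, C1qa, Krt19, Upk3b, Ankrd1, Pdlim5, Pxn, Iqgap1, Ndufc1 and Cox7a2 lost their calls with that term. YAP5SA 2 lay nearest to the MEF2A libraries. Its correlation across genes with MEF2A 1 was 0.958, against 0.946 with YAP5SA 1 and 0.905 with YAP5SA 3. YAP5SA 3 lay farthest from them, at 0.854 to 0.868, and carried more RNA of macrophage and fibroblast marker genes, given with those genes. Results that rest on 1 of these libraries are given with and without it. Levels are given as CPM, counts scaled to a common total with edgeR's TMM factors.

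Of the genes tested, 2679 (14.9%) differed at a Benjamini-Hochberg adjusted p under 0.05 in edgeR's quasi-likelihood test with batch as a covariate. Of these, 1398 (7.77%) were higher in YAP5SA and 1281 (7.12%) were lower. Counts for the gene lists below are to be read against these shares, and a list near them does not stand out from all genes. The rises were the larger changes, with 210 genes higher by at least 3 on the log2 scale against 31 lower by as much. The median over all genes was 0.08. In 2855 genes (15.9%) every YAP5SA library lay above every MEF2A library, and in 2466 (13.7%) every one lay below. All 2679 differences had the same sign in batch 1 and in batch 2, but they were called on both batches together, which favours genes that agree. A difference between the batches was called for 3 genes (0.0167%), Apoe, Gm11346 and Tmem171, against 1417 at an unadjusted p under 0.05. Among the 1398 higher genes YAP5SA 2 was the lowest of the 3 YAP5SA libraries in 1142 (81.7%), and among the 1281 lower genes it was the highest in 1093 (85.3%), against 33.4% and 36.9% of all genes tested. YAP5SA 2 thus lay nearest to MEF2A in most of the called genes. Without YAP5SA 3, 841 genes were called, without YAP5SA 1, 1213, without MEF2A 4, 1727, and without YAP5SA 2, 3870. When counts were scaled by library totals alone, the all-gene median went from 0.08 to 0.51, with 1526 genes higher and 79 lower, so a fall is a fall relative to most genes. Of the 170 higher and 121 lower called genes in the gene lists and the leading ranks, 158 and 17 kept their calls under that scaling. Those 17 were 14 of the 15 leading falls (all but Doc2g) with Tnnt1, Sgca and Slc38a3, and none of the other falls named here kept its call. Values after a gene name are log2 fold changes, YAP5SA minus MEF2A, ± SE, with the edgeR adjusted p. Of these 291 genes, 112 kept an adjusted p under 0.05 when each of the 7 libraries was left out in turn, and where such a removal ended the call of a gene named here, it is said beside it.

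**Figure D1:**
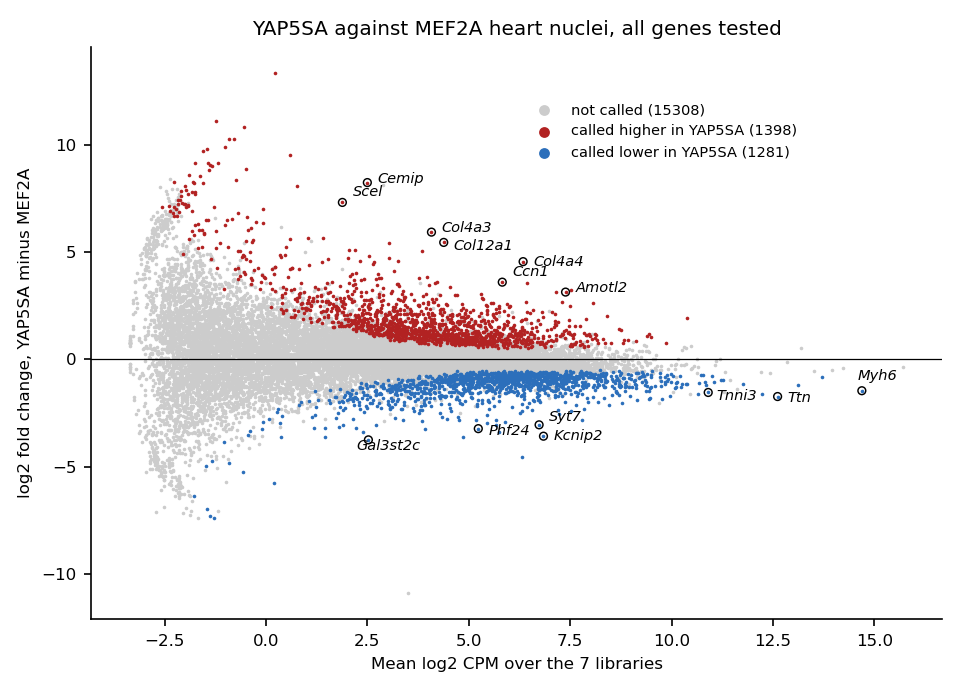
Each point is 1 of 17987 genes, with its mean log2 CPM over the 7 libraries on the x axis and its log2 fold change (YAP5SA minus MEF2A) on the y axis. Red points (1398) were called higher and blue points (1281) lower in YAP5SA, and the circled genes are described in the text. More points lie above 3 (210 red) than below -3 (31 blue).

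Mouse Yap1 itself was measured at 51.7, 76.3 and 39.3 CPM in YAP5SA 1 to 3 and at 81.2, 80.6, 64.1 and 67.3 CPM in MEF2A 1 to 4. YAP5SA 2 lay inside the MEF2A range and the other 2 below it, and the difference of -0.45 ± 0.21 missed the threshold (adjusted p = 0.153). Mef2a was at 392, 535 and 251 CPM in YAP5SA and 623, 612, 569.8 and 579.8 CPM in MEF2A, all YAP5SA libraries below all MEF2A libraries. Its difference of -0.67 ± 0.21, adjusted p = 0.0365, failed when any library but YAP5SA 2 was left out (adjusted p from 0.0572 to 0.283). Neither count shows the delivered factor, since transgene reads need not be counted there.

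Most targets of YAP and its paralog TAZ were higher in YAP5SA. Of 23 tested, 18 rose and 0 fell, with a median of 2.06 beside 0.08 over all genes, and 11 of the 18 kept the call in all 7 removals. The same genes had a median of 1.91 in YAP5SA against Control and of -0.01 in MEF2A against Control, 2 comparisons that share the Control libraries. Amotl2, an angiomotin that binds YAP (chromosome 9, 102716672 to 102733418, GRCm38), was at 820.0, 459 and 501 CPM in YAP5SA and at 94.5, 73.2, 61 and 45.5 CPM in MEF2A. The lowest YAP5SA library thus lay well above the highest MEF2A library (3.13 ± 0.35, adjusted p = 9.36e-05). Ccn1, which encodes a secreted matrix-associated protein, was at 413, 97.6 and 279.7 CPM against 29.2, 27.8, 20.9 and 9.54 CPM (3.59 ± 0.53, adjusted p = 0.00138). Ccn2, its relative, was at 551, 176 and 432 CPM against 59, 21.2, 23.2 and 27.7 CPM (3.56 ± 0.43, adjusted p = 0.000282), with 23.2% of its exons shared with the antisense gene Gm15270, whose reads cannot be told apart without strand. In both, YAP5SA 2 was the lowest YAP5SA library and still above every MEF2A library. Wwc1, which encodes the Hippo scaffold KIBRA, ranged over 0.912 to 3.07 CPM in MEF2A and 41.3 to 78.5 CPM in YAP5SA (4.71 ± 0.45, adjusted p = 9.99e-06). Tgfb2, a growth factor, ranged over 7.95 to 11.5 CPM in MEF2A and 32.7 to 90.6 CPM in YAP5SA (2.57 ± 0.31, adjusted p = 6.5e-05). Crim1 (2.74 ± 0.42), the TEAD cofactor gene Vgll3 (4.42 ± 0.63) and the LIM protein gene Ajuba (1.97 ± 0.31) also kept their calls.

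Ankrd1, a stress-responsive protein of the sarcomere and a much used YAP reporter, was already abundant in MEF2A at 1301, 423, 908 and 659.9 CPM and stood at 4842, 1968 and 2428 CPM in YAP5SA. Its difference of 1.92 ± 0.49, adjusted p = 0.0207, was lost without YAP5SA 1 (adjusted p = 0.0964), YAP5SA 3 (0.0681), MEF2A 2 (0.0546) or MEF2A 4 (0.0582). The pathway's own components moved less than its targets. Of 23 Hippo and TEAD genes, 4 rose (17.4%, against 7.77% of all genes) and 0 fell, with a median of 0.46. The 4 were Vgll4, a TEAD cofactor (2.39 ± 0.49, adjusted p = 0.00409), Sav1, the scaffold of the upstream kinases (1.82 ± 0.48, adjusted p = 0.0169), and the factors Tead4 (1.58 ± 0.43, adjusted p = 0.0205) and Tead1 (0.63 ± 0.20, adjusted p = 0.0394). Vgll4 alone of these kept its call in all removals. Without YAP5SA 3 the adjusted p was 0.0633 for Sav1, 0.103 for Tead4 and 0.0628 for Tead1, and without YAP5SA 1 it was 0.0517, 0.0862 and 0.234. Removal of a MEF2A library also ended the calls of Sav1 (MEF2A 4, 0.0571), Tead4 (MEF2A 1, 0.0649) and Tead1 (each of the 4, 0.0796 to 0.130), and 25.4% of Sav1's exons overlap the antisense gene Atl1.

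The promoters of 2 raised targets are shown because they carry the core letters of the TEAD site, GGAATG or its reverse complement, in the 250 bases before the RefSeq start (GRCm38.p6, 5′ to 3′ on the gene's strand, ending 1 base before the start), with those letters in capitals. Amotl2 is at chr9:102717554-102717803 on the plus strand and has 1 match, whose first base lies at -65 from the start. Ankrd1 is at chr19:36119845-36120094 on the minus strand and has 2, at -210 and -123. They were chosen after the matches were seen.
Amotl2: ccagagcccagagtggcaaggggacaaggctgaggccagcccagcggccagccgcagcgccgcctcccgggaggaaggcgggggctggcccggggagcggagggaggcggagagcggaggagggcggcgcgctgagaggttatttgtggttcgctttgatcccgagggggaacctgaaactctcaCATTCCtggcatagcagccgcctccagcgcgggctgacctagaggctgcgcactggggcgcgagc
Ankrd1: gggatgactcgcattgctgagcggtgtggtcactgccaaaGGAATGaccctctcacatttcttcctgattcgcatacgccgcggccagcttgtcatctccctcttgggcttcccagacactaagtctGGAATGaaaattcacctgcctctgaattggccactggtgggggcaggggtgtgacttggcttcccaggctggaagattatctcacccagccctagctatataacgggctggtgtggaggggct
Over 12323 tested genes with such a promoter in the table, 1651 (13.4%) held the letters. The share was 8 of 17 YAP and TAZ targets (47.1%), 172 of 1081 genes called higher in YAP5SA (15.9%), 37 of the 143 called higher by at least 3 (25.9%) and 121 of 983 called lower (12.3%). Of 15 sarcomere genes, a list in which 10 of 19 fell, 6 (40.0%) held the letters too, and a match marks letters and not a bound site. The AP-1 letters TGANTCA were in 734 promoters (5.96%), in 80 of those called higher (7.40%) and in 16 of the 143 called higher by at least 3 (11.2%).

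Among genes with a mean log2 CPM of at least 1 and no overlap within a batch, the largest rises included genes barely detected in MEF2A nuclei. Y-linked genes, Xist and Tsix were left aside, but other X-linked genes stayed in, Pak3 among them. Cemip, which encodes a hyaluronan-degrading protein (chromosome 7, 83932857 to 84086502), was at 295, 66.9 and 191 CPM in YAP5SA and at 0.544, 1.87, 0.144 and 0.0608 CPM in MEF2A (8.23 ± 1.14, adjusted p = 0.00192). Scel, which encodes sciellin of the cornified envelope of skin (chromosome 14, 103513342 to 103612797), was at 109, 47 and 44.4 CPM against 0.218, 0.374, 0.288 and 0.608 CPM (7.30 ± 0.70, adjusted p = 5.5e-05). Tent5b, a poly(A) polymerase (chromosome 4, 133480132 to 133487938), was at 32.2, 6.39 and 34.3 CPM against 0.435, 0.250, 0.768 and 0.669 CPM (5.66 ± 0.71, adjusted p = 0.000145). In Cemip and Tent5b the YAP5SA 2 value was far below the other 2 YAP5SA values. It still exceeded every MEF2A library, but the ranking took only genes without overlap within a batch, so this was largely set by the choice. Genes this low in MEF2A also reached the level cutoff only through the YAP5SA libraries. Beside Myh8 and the YAP target Wwc1, which stand with their groups, the other genes of the leading 15 outside the matrix were Krt7, an epithelial keratin (5.42 ± 0.47), the kinase gene Pak3 (5.09 ± 0.34), the serine protease genes Prss27 (5.09 ± 0.89) and Prss23 (4.71 ± 0.87, 22.9% of its exons shared with the antisense Prss23os), the endocytic receptor gene Lrp2 (4.66 ± 0.77), the zinc finger gene Zbtb8b (4.58 ± 0.30) and the sterol-binding protein gene Tmem97 (4.57 ± 0.50). All of these kept their calls. Pak3 and Zbtb8b each had adjusted p = 1.02e-07, and their 3 YAP5SA libraries spanned only 22.3 to 37.4 and 37.8 to 86.1 CPM. Of the 6 promoters taken by rank (the first 3 rises and the first 3 falls with an entry), the Scel promoter alone held any of 5 motifs searched on both strands (TEAD, AP-1, MEF2, the ERR letters AAGGTCA and the CHR letters TTTGAA), and it is shown because its AP-1 letters, in capitals at -36, lie close to the start. The other capitals, at -166 and -147, are CHR letters. It is at chr14:103513091-103513340, plus strand.
Scel: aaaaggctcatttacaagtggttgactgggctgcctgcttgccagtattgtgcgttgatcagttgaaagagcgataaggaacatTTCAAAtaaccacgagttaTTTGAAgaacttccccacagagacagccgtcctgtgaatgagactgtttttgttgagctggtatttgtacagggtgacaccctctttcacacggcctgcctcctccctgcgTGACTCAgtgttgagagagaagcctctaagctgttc

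**Figure D2:**
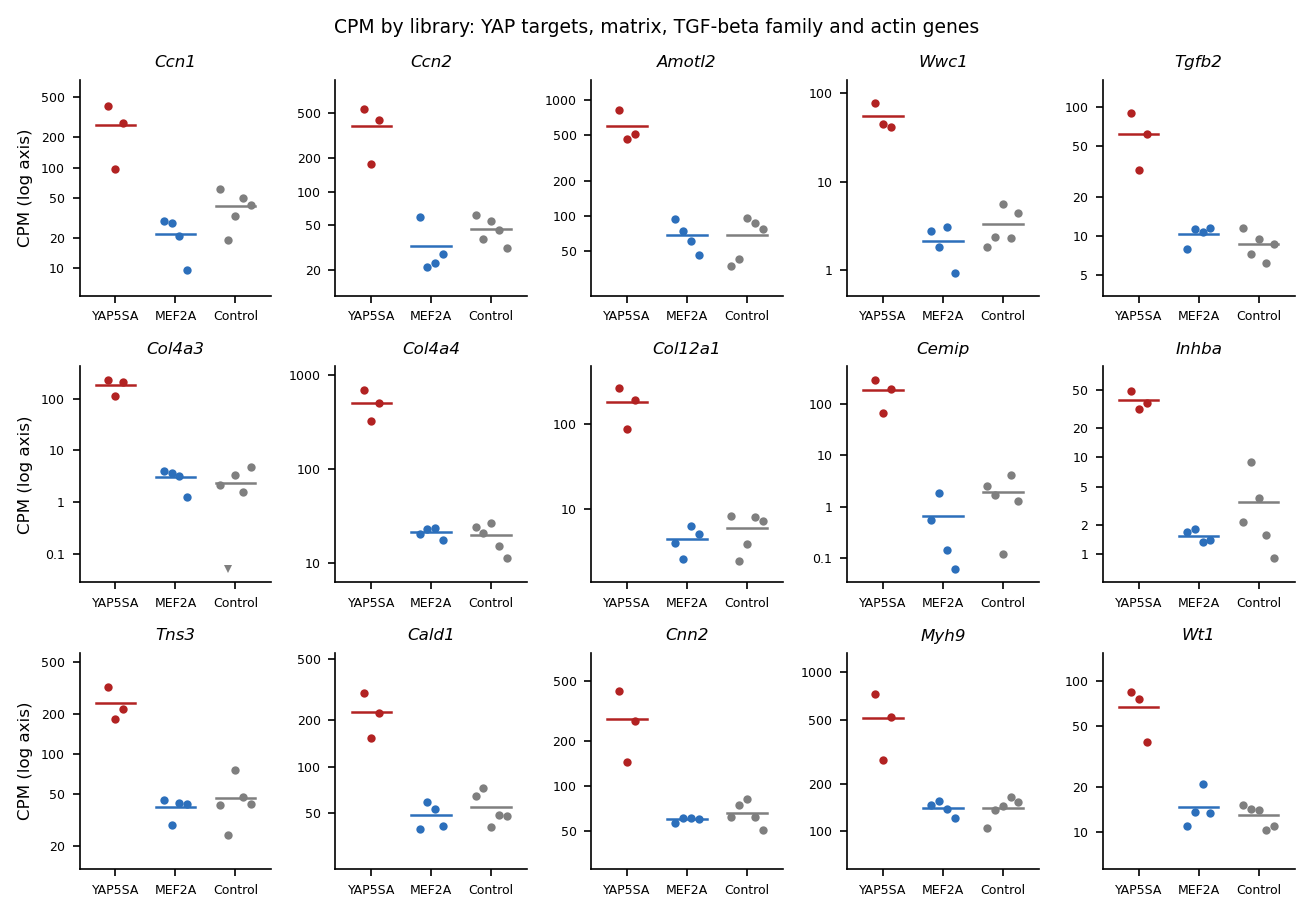
CPM on a log axis in each library, with 1 panel per gene; red points are the 3 YAP5SA, blue the 4 MEF2A and grey the 5 Control libraries in replicate order, lines are group means, and a triangle marks a library under 0.05 CPM. In all 15 panels the lowest YAP5SA point lies above the highest MEF2A point.

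Matrix genes rose broadly. Of 16 genes of type IV collagens and the basement membrane, 7 rose and 1 fell, and of 26 other extracellular matrix genes 14 rose and 0 fell, with medians of 0.65 and 1.15. Among the 7, 4 kept the call in all removals. Col4a3, a type IV collagen chain of specialised basement membranes (chromosome 1, 82586921 to 82722059), was at 234, 112 and 208 CPM in YAP5SA and 4.08, 3.62, 3.26 and 1.28 CPM in MEF2A (5.92 ± 0.72, adjusted p = 0.000702). Its partner Col4a4, whose gene lies next to it (chromosome 1, 82448423 to 82586849), was at 688, 328 and 500.3 CPM against 20.6, 23, 23.6 and 17.7 CPM (4.54 ± 0.30, adjusted p = 1.02e-07). The X-linked chain of that trimer, Col4a5, ranged over 115 to 152 CPM in MEF2A and 242 to 320.2 CPM in YAP5SA (1.12 ± 0.18, adjusted p = 0.000646), and the ubiquitous chain Col4a2 rose by 1.35 ± 0.23. The 1 gene that fell was Lama4, a laminin chain of vessel and muscle basement membranes, at 82.3, 139.7 and 69.8 CPM in YAP5SA against 209, 261, 216 and 266 CPM in MEF2A (-1.36 ± 0.22, adjusted p = 0.000889). Col12a1, a fibril-associated collagen (chromosome 9, 79598991 to 79718831), was at 266, 88.3 and 195 CPM against 3.97, 2.62, 6.29 and 5.17 CPM (5.44 ± 0.46, adjusted p = 1.52e-05). The adhesive glycoprotein Thbs1 (5.03 ± 0.90, adjusted p = 0.00585) and the collagen cross-linking enzymes Lox (3.76 ± 0.61, adjusted p = 0.00148) and Loxl2 (1.87 ± 0.32, adjusted p = 0.00122) rose with it. Of the 14 other matrix genes that rose, 5 kept their calls in all removals, and 5 were called without YAP5SA 3 and 9 without YAP5SA 1; the matrix gene Dcn, also a fibroblast marker, is described with those markers.

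Part of the TGF-beta family and of the actin cytoskeleton also rose. In the TGF-beta and BMP list 9 of 24 rose and 1 fell, with a median of 0.88, and 4 of the 9 kept the call in all removals. Inhba, which encodes the activin A subunit (chromosome 13, 16011851 to 16031621), was at 48.2, 31.8 and 36.8 CPM in YAP5SA and 1.69, 1.81, 1.34 and 1.40 CPM in MEF2A (4.55 ± 0.52, adjusted p = 7.3e-05). Tgfb3 was at 194, 52.5 and 152 CPM against 18, 18.4, 22.6 and 14.3 CPM (2.83 ± 0.35, adjusted p = 0.000175). In both the YAP5SA libraries lay above all MEF2A libraries. Ltbp2 rose (2.02 ± 0.35) and its relative Ltbp1, a binding protein of latent TGF-beta, was the gene that fell (-1.03 ± 0.20). Of 29 actin and focal adhesion genes 14 rose and 4 fell, with a median of 0.92, and 8 of the 14 kept the call in all removals. The rises included Tns3, a tensin of adhesion sites (322, 185 and 219.8 against 45, 29.2, 42.6 and 41.6 CPM, 2.69 ± 0.28, adjusted p = 1.96e-05), and the actin regulators Cald1 (2.18 ± 0.23, adjusted p = 2.11e-05) and Cnn2 (2.21 ± 0.27, adjusted p = 7.61e-05). Non-muscle myosin Myh9 was at 736, 282 and 527 CPM against 146, 156, 138 and 122 CPM (1.89 ± 0.25, adjusted p = 0.00016). Itgb1 (2.22 ± 0.35), Tln1 (1.09 ± 0.19) and Zyx (1.07 ± 0.20), all adhesion components, kept their calls, and so did Vcl (2.78 ± 0.48), which shares 25.5% of its exons with the antisense Ap3m1. The 4 that fell were Fblim1 (-1.27 ± 0.25), which kept its call, and Actg1 (-0.94 ± 0.24), Iqgap1 (-0.65 ± 0.18) and Pxn (-0.89 ± 0.27), which lost it without YAP5SA 3 (adjusted p = 0.120, 0.191 and 0.258); Iqgap1 and Pxn also lost it without YAP5SA 1 (0.0519 and 0.0969), Iqgap1 without MEF2A 2 (0.0781) and Pxn without MEF2A 1, 2 or 4 (0.0544 to 0.0912).

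Genes of the contractile apparatus were lower. Of 19 sarcomere genes 10 fell and 1 rose, with a median of -0.81, which was -0.57 in YAP5SA against Control and 0.21 in MEF2A against Control. Summed over the list, the YAP5SA libraries held 44493, 49042 and 35007 CPM and the MEF2A libraries 98318 to 106466 CPM, with Controls at 61403 to 107523 CPM. Myh6, the adult ventricular myosin heavy chain of the mouse, was at 15253, 14561 and 13766 CPM in YAP5SA and 41566, 44123, 42649 and 37598 CPM in MEF2A (-1.47 ± 0.28, adjusted p = 0.00253). The 3 YAP5SA libraries lay close together, YAP5SA 2 included, and all lay below the MEF2A libraries. Ttn, the giant spring protein (chromosome 2, 76703980 to 76982547), was at 3185, 4370 and 2319 CPM against 9174, 8234, 12054 and 12845 CPM (-1.74 ± 0.29, adjusted p = 0.00096). Tnni3, the adult cardiac troponin I, was at 692, 1695 and 850.0 CPM against 3025, 2830, 2832 and 3876 CPM (-1.55 ± 0.29, adjusted p = 0.00220), and the thin filament protein Nebl at 115, 172 and 83.7 CPM against 378, 449, 381 and 447 CPM (-1.79 ± 0.22, adjusted p = 7.2e-05). These 4 genes kept their calls in all removals, as 5 of the 10 did, and 5 sarcomere genes were called lower without YAP5SA 3. With library totals alone the list's median was -0.33, beside 0.51 over all genes, and 0 were called. The 1 that rose, Pdlim5, a Z-disc adaptor (0.86 ± 0.26, adjusted p = 0.0318), lost its call without any library but YAP5SA 2 (adjusted p from 0.0570 to 0.219).

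The promoter of Ttn, which fell, is shown for its match to the MEF2 site, in capitals at -166. It is at chr2:76982548-76982797 on the minus strand and was chosen after the match was seen.
Ttn: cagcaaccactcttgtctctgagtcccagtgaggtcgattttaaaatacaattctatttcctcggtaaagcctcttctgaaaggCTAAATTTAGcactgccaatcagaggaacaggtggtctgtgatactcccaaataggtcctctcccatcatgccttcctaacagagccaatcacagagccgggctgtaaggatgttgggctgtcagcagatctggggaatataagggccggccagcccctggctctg
The MEF2 site was in 73 of the 12323 promoters (0.592%), in 14 of 983 genes called lower in YAP5SA (1.42%), in 6 of 1081 called higher (0.555%) and in 3 of 15 sarcomere genes (20.0%). No match in this window says nothing of sites elsewhere.

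Of 24 muscle genes commonly linked to MEF2, 8 fell and 0 rose (median -0.61), and of 14 MEF2 factors and their coregulators 5 fell and 0 rose (median -0.54). The creatine kinase genes Ckm (-1.63 ± 0.26, adjusted p = 0.000639, 15.5% of exons shared with the antisense A930016O22Rik) and Ckmt2 (-1.35 ± 0.25, adjusted p = 0.00199) and the Z-disc gene Ldb3 (-1.11 ± 0.21, adjusted p = 0.00222) kept their calls. Ckm was at 13, 19.5 and 13.4 CPM in YAP5SA and 49.3, 41.8, 32.4 and 59.8 CPM in MEF2A. Against Control, Ckm, Ckmt2 and Ldb3 were at -0.04, 0.21 and 0.29 in MEF2A and at -1.67, -1.14 and -0.82 in YAP5SA, with the Controls shared. Among the coregulators the muscle methyltransferase Smyd1 (-0.96 ± 0.22, adjusted p = 0.00687), the calcineurin-binding Cabin1 (-0.74 ± 0.17, adjusted p = 0.00696) and the class II deacetylase Hdac9 (-1.31 ± 0.35, adjusted p = 0.0180) were lower. All 3 lost the call without YAP5SA 3 (adjusted p = 0.0681, 0.0533 and 0.152), and Hdac9 also without YAP5SA 1 (0.0894) or MEF2A 2 (0.0624); no coregulator was called without YAP5SA 3, where the median was -0.39.

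Part of the genes of conduction and calcium handling fell. Of 20 sodium, potassium and pacemaker channel genes 6 fell and 0 rose (median -0.92), and of 23 calcium handling genes 7 fell and 1 rose (median -0.41). Kcnip2, the accessory subunit of the transient outward current (chromosome 19, 45791839 to 45816061), was at 14.3, 92.3 and 6.67 CPM in YAP5SA and 398, 392, 369 and 500.0 CPM in MEF2A (-3.59 ± 0.83, adjusted p = 0.0184). YAP5SA 2 lay between the other 2 YAP5SA libraries and the MEF2A range, and without YAP5SA 1 the call was lost (adjusted p = 0.0610). The pacemaker channel Hcn2 was at 9.66, 29.1 and 6.01 CPM against 66.5, 57.2, 37.1 and 48.5 CPM (-2.03 ± 0.39, adjusted p = 0.00325), and the background potassium channel Kcnk3 at 11.2, 12.6 and 16.1 CPM against 28.9, 39.6, 38.5 and 45.9 CPM (-1.53 ± 0.26, adjusted p = 0.00103). Casq2, the calcium buffer of the sarcoplasmic reticulum, was at 289.7, 382 and 285 CPM against 614, 559.7, 492 and 680.2 CPM (-0.88 ± 0.19, adjusted p = 0.00516), and Asph, which encodes the junctional protein junctin, fell by 1.28 on the log2 scale (adjusted p = 0.000852, 14.3% of exons shared with the antisense Clvs1). The L-type calcium channel Cacna1c (-1.20 ± 0.26, adjusted p = 0.00553) and the release channel Ryr2 (-0.84 ± 0.20, adjusted p = 0.00979) were lower and lost the call without YAP5SA 3 (adjusted p = 0.0566 and 0.0539). At the intercalated disc Dsc2 fell (-1.45 ± 0.29) while Cdh2, the N-cadherin gene, rose (1.04 ± 0.21), and in the dystrophin complex Sgca ranged over 168 to 204 CPM in MEF2A and 35.9 to 63.5 CPM in YAP5SA (-1.90 ± 0.25, adjusted p = 0.000152).

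Isoform genes of skeletal muscle went both ways. Tnnt1, slow skeletal troponin T, was at 27.8, 59.3 and 23.8 CPM in YAP5SA and 154, 169, 169 and 208 CPM in MEF2A (-2.24 ± 0.31, adjusted p = 0.000237). Casq1, the skeletal calsequestrin, was at 77.9, 27.4 and 59.4 CPM against 14.7, 7.55, 7.96 and 4.01 CPM (2.68 ± 0.39, adjusted p = 0.000393), and Myh8, the perinatal skeletal myosin, at 26.5, 60.9 and 37 CPM against 1.63, 0.686, 2.25 and 1.09 CPM (4.83 ± 0.38, adjusted p = 9.72e-07). The fast skeletal myosin Myh1 was at 5.16 to 8.72 CPM in YAP5SA and had 7 counts in MEF2A 1 and 0 in the other MEF2A libraries and all Controls, and its neighbour Myh2 was also called higher (adjusted p = 0.000751). Of 17 skeletal and smooth muscle genes tested 4 rose and 1 fell. Of 15 fetal and stress genes 4 rose and 0 fell (median 0.70). Fhl1, a LIM protein of the sarcomere, was at 307, 57.3 and 192 CPM in YAP5SA and 20.1, 32.5, 40.8 and 34.3 CPM in MEF2A and kept its call (2.55 ± 0.43, adjusted p = 0.00240). The natriuretic peptide gene Nppb was at 698, 105 and 920.3 CPM against 132, 66.9, 48.2 and 38.6 CPM, where YAP5SA 2 lay inside the MEF2A range (3.13 ± 0.70, adjusted p = 0.0163, lost without YAP5SA 1, 0.0639, YAP5SA 3, 0.114, MEF2A 3, 0.0510, or MEF2A 4, 0.0532). Acta2, smooth muscle actin, was at 865, 151 and 669 CPM against 63.3, 66.2, 87.2 and 199 CPM with the same overlap (2.50 ± 0.57, adjusted p = 0.0150, lost without YAP5SA 1, 0.0582, or YAP5SA 3, 0.116).

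**Figure D3:**
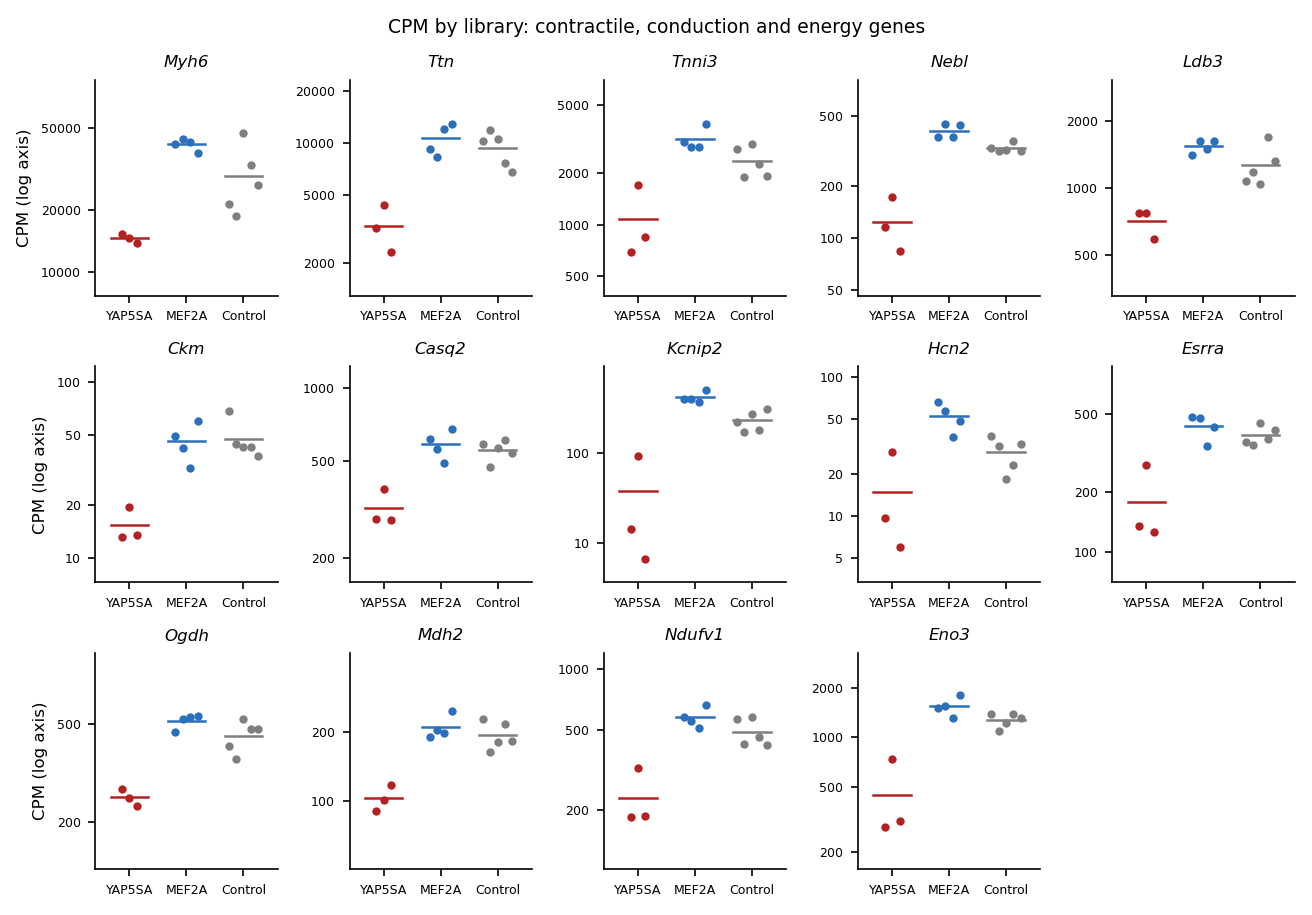
CPM on a log axis in each library, with 1 panel per gene; red points are the 3 YAP5SA, blue the 4 MEF2A and grey the 5 Control libraries in replicate order, and lines are group means. In all 14 panels the highest YAP5SA point lies below the lowest MEF2A point. In all but Myh6, Ogdh and Mdh2 the second red point, YAP5SA 2, is the highest of the 3.

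The largest falls were of genes with diverse roles. Gal3st2c, a galactose sulfotransferase (chromosome 1, 93990509 to 94017147), was at 1.25, 3.88 and 0.150 CPM in YAP5SA and 18.2, 18.9, 18.5 and 24.1 CPM in MEF2A (-3.76 ± 0.67, adjusted p = 0.00239). Phf24, which encodes a PHD finger protein, was at 15.6, 9.64 and 7.02 CPM against 90.8, 105, 91 and 112 CPM (-3.23 ± 0.30, adjusted p = 6.11e-06). Syt7, a calcium sensor of vesicle fusion, was at 29.3, 66.8 and 11.9 CPM against 267, 321, 261 and 291 CPM (-3.06 ± 0.49, adjusted p = 0.00173). The groups did not overlap in any of the 3, but the ranking took only genes without overlap within a batch, so this was largely set by the choice. Gal3st2c has near-identical neighbours, so how its reads were split is uncertain. Rnft2 (-3.27 ± 0.51), Cuzd1 (-3.16 ± 0.67), the relaxin receptor gene Rxfp1 (-2.85 ± 0.57) and Fam19a3 (-2.79 ± 0.38) also kept their calls. Abcb4, a phospholipid flippase, was at 3.79, 3.83 and 6.47 CPM against 22.6, 39.3, 38.7 and 37.6 CPM (-2.87 ± 0.49, adjusted p = 0.00167), and Wnk4, a kinase that controls salt transporters, at 10.2, 32.9 and 10.2 CPM against 108, 129, 169 and 104 CPM (-2.83 ± 0.42, adjusted p = 0.00079). Against Control in the same edgeR fit, Abcb4 and Wnk4 were at 1.38 and 1.06 in MEF2A (adjusted p = 0.576 and 0.595) and at -1.48 and -1.77 in YAP5SA (adjusted p = 0.0509 and 0.0129). Calls that were lost without YAP5SA 3 were those of Srrm4 (-3.23 ± 0.74, adjusted p = 0.0542 without it), Cilp2 (-3.07 ± 0.69, 0.0714), Slc36a2 (-2.98 ± 0.71, 0.119), Platr32 (-2.85 ± 0.63, 0.0896) and Doc2g (-2.83 ± 0.70, 0.0541, also lost without YAP5SA 1, 0.0711), which shares 63.5% of its exons with Gm49405 on the same strand.

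Most called genes of oxidative metabolism were lower in YAP5SA. Of 26 genes of the TCA cycle and pyruvate entry 10 fell and 1 rose (median -0.48), and of 30 fatty acid genes 9 fell and 0 rose (median -0.68). Ogdh, a subunit of the 2-oxoglutarate dehydrogenase, was at 273, 250.5 and 232 CPM in YAP5SA and 462, 524, 534 and 539 CPM in MEF2A (-1.0 ± 0.17, adjusted p = 0.00128). The malate dehydrogenases Mdh2 (90.7, 101 and 117 against 190.2, 204, 199 and 247 CPM, -1.01 ± 0.18, adjusted p = 0.00143) and Mdh1 (-1.07 ± 0.21, adjusted p = 0.00277) fell by a like amount. All YAP5SA libraries lay below all MEF2A libraries for these 3, and the 3 kept their calls. The gene that rose was Pdha1, a pyruvate dehydrogenase subunit (0.74 ± 0.21, adjusted p = 0.0274), which lost its call without YAP5SA 1 (0.108), YAP5SA 3 (0.0709) or MEF2A 2, 3 or 4 (0.0680 to 0.0979). None of the 9 fatty acid genes kept its call in all removals, and 1 was called without YAP5SA 3, where the median was -0.61. The clearest were Etfa, of the electron transfer flavoprotein (-0.95 ± 0.21, adjusted p = 0.00554), Plin5, of lipid droplets (-1.33 ± 0.30, adjusted p = 0.00748), and the beta-oxidation gene Eci1 (-1.39 ± 0.32, adjusted p = 0.00842), with adjusted p = 0.0573, 0.0753 and 0.0820 without YAP5SA 3.

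Esrra, the estrogen-related receptor that drives mitochondrial genes in muscle, was at 136, 274 and 126 CPM in YAP5SA and 481, 475, 342 and 429 CPM in MEF2A (-1.31 ± 0.24, adjusted p = 0.00206), with YAP5SA 2 the highest of its group and below the lowest MEF2A library. Polg, the mitochondrial DNA polymerase, went up (0.94 ± 0.19, adjusted p = 0.00357). Of 37 complex I genes 9 fell and 1 rose around a median of 0.07, and of 41 genes of complexes II to V 7 fell and 1 rose around -0.18. The shares called were 27.0% and 19.5%, against 14.9% of all genes. Ndufv1, Ndufs8 and Ndufb10, subunits of complex I, fell, with -1.34, -1.03 and -0.93 (adjusted p = 0.00103, 0.00260 and 0.00645), and Atp5h, of the ATP synthase, fell too, with -0.87 (adjusted p = 0.00370). Ndufv1 was at 185, 323 and 187 CPM against 582, 553, 509.9 and 669 CPM. The complex I median was -0.47 without YAP5SA 3 and, by batch, -0.26 in batch 1 and 0.54 in batch 2. The 2 that rose, Ndufc1 (1.14) and Cox7a2 (1.29), lost their calls without YAP5SA 3 (adjusted p = 0.253 and 0.514) and without YAP5SA 1 (0.0593 and 0.0511) or MEF2A 1 or 3 (0.0579 to 0.0922), and Cox7a2 also without MEF2A 2 (0.0868) or MEF2A 4 (0.0571). Of the 15 transcripts of the mitochondrial chromosome none was called by edgeR (0 at an unadjusted p under 0.05, 0 by DESeq2 or limma-voom, 3 lower by limma-voom with quality weights, 11 lower in batch 1 alone), and mt-Co1 ran from 12979 to 125987 CPM within YAP5SA.

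Genes of sugar metabolism went both ways. Of 29 glycolysis, glycogen and lactate genes 5 rose and 5 fell, with a median of 0.04. Slc2a1, which encodes the glucose transporter GLUT1, was at 126, 15.9 and 62.9 CPM in YAP5SA and 4.03, 4.31, 8.88 and 4.38 CPM in MEF2A (3.81 ± 0.68, adjusted p = 0.00388). Gyg, the glycogen primer glycogenin, was at 84.8, 31.7 and 66.9 CPM against 15.5, 12.9, 18.8 and 23.9 CPM (1.78 ± 0.33, adjusted p = 0.00206). The muscle enzymes went down: Eno3, muscle enolase, was at 284, 735 and 308 CPM against 1516, 1548, 1303 and 1809 CPM (-1.83 ± 0.29, adjusted p = 0.000577), Pygm, muscle glycogen phosphorylase, at 199.7, 371 and 230.5 CPM against 644, 612, 576 and 666 CPM (-1.20 ± 0.23, adjusted p = 0.00291), and Pfkm, muscle phosphofructokinase, was at -1.29 (adjusted p = 0.00431). These 5 kept their calls. Of 11 pentose phosphate and hexosamine genes none was called by edgeR (1 higher at an unadjusted p under 0.05 and 1 by DESeq2), with Pgd, of the pentose phosphate pathway, at 101 to 111 CPM in YAP5SA and 94.5 to 112 CPM in MEF2A.

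Some genes of serine synthesis and amino acid uptake rose. In the serine, one-carbon and nucleotide list 6 of 30 rose and 3 fell (median 0.28). Psat1, an enzyme of serine synthesis, was at 69.4, 38.5 and 34.6 CPM in YAP5SA and 7.51, 6.87, 9.60 and 5.41 CPM in MEF2A (2.67 ± 0.28, adjusted p = 1.47e-05). Against Control it was at 1.48 in YAP5SA (adjusted p = 0.00175) and at -1.18 in MEF2A (adjusted p = 0.209). The amino acid transporter Slc7a5 was at 27.9, 7.49 and 25.2 CPM against 2.12, 2.62, 0.960 and 1.03 CPM (3.67 ± 0.53, adjusted p = 0.000293). Slc38a3, a glutamine transporter, ran the other way, at 10.8, 12.6 and 8.42 CPM against 30.2, 48.5, 40.4 and 47.8 CPM (-2.09 ± 0.31, adjusted p = 0.000332). Against Control, Slc38a3 was at 1.57 in MEF2A (adjusted p = 0.0496) and at -0.52 in YAP5SA (adjusted p = 0.258).

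In the integrated stress response 4 of 12 genes rose and 2 fell (median 1.16), and a factor of the pathway and its target parted. Atf4 was at 167, 77.4 and 123 CPM in YAP5SA and 56, 39.1, 45 and 53.5 CPM in MEF2A (1.37 ± 0.24, adjusted p = 0.00122), and Ddit3, which encodes CHOP and is a target of ATF4, was at 22.8, 40.2 and 22.1 CPM against 76, 74.1, 68.5 and 87.1 CPM (-1.49 ± 0.23, adjusted p = 0.000485). The phosphatase subunit Ppp1r15a (1.54 ± 0.28, adjusted p = 0.00192) and the mTORC1 inhibitor Ddit4 (2.70 ± 0.48, adjusted p = 0.00148) rose with Atf4. Of 15 NRF2 and antioxidant genes 3 rose and 2 fell, with Txnrd1, thioredoxin reductase, higher (1.09 ± 0.21, adjusted p = 0.00288) and Nfe2l2, which encodes NRF2 itself, at 53.1, 106 and 56.2 CPM against 214, 156, 163 and 193 CPM (-1.34 ± 0.26, adjusted p = 0.00299). All of these genes kept their calls.

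Many genes of mitosis were higher in YAP5SA nuclei than in MEF2A nuclei. Of 26 mitosis and cytokinesis genes 14 rose and 0 fell (median 1.51), and in 24 of 26 (against 15.9% of all genes) every YAP5SA library lay above every MEF2A library. The list's median was 0.20 in YAP5SA against Control and -1.27 in MEF2A against Control. Summed over the list, YAP5SA held 735, 619 and 698 CPM, MEF2A 161 to 371 CPM and the Controls 161.5 to 1138 CPM, so the Controls span both groups. Aurkb, a kinase of chromosome segregation and cytokinesis, was at 22.1, 14.5 and 27.2 CPM in YAP5SA, 5.33, 3.93, 6.57 and 5.04 CPM in MEF2A and 3.83 to 18.1 CPM in Controls (2.11 ± 0.43, adjusted p = 0.00373), and it was the 1 gene of the 14 that kept its call in all removals. Cdk1, the mitotic kinase, was at 24.3, 24.4 and 26.9 CPM against 9.91, 4.49, 10.3 and 8.08 CPM (1.68 ± 0.41, adjusted p = 0.0129), and the cytokinesis regulator Racgap1 at 33.6, 28.4 and 38 CPM against 10.6, 8.61, 13.1 and 8.14 CPM (1.76 ± 0.39, adjusted p = 0.00762). The 3 YAP5SA libraries were nearly level for both, YAP5SA 2 included. Without YAP5SA 3 their adjusted p was 0.0604 and 0.0541, and 1 of the 26 genes was called without YAP5SA 3 and 4 without YAP5SA 1, while the median stayed at 1.63 and 1.47. Within batch 1, where sex and virus cannot be told apart, the median was 1.69 with 15 called. Within batch 2, with 1 YAP5SA library, it was 1.40.

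Of 25 replication genes 6 rose and 0 fell (median 0.62; 0.05 in YAP5SA against Control and -0.70 in MEF2A against Control). Cdt1, which loads the replicative helicase, was at 27.8, 32.4 and 38.2 CPM against 17, 15, 13.8 and 13.6 CPM (1.15 ± 0.21, adjusted p = 0.00206). The ribonucleotide reductase genes Rrm2 (16.4, 9.25 and 20.4 against 3.21, 1.87, 4.17 and 2.67 CPM, 2.40 ± 0.45, adjusted p = 0.00215) and Rrm1 (1.17 ± 0.22, adjusted p = 0.00234) rose and, with Cdt1, kept their calls. Of 18 cyclins, kinases and inhibitors 2 rose (11.1%, near the 7.77% of all genes). They were Ccne1 (1.79 ± 0.38, adjusted p = 0.00468) and the inhibitor Cdkn2c (2.38 ± 0.72, adjusted p = 0.0337). Both calls were lost without YAP5SA 3 (adjusted p = 0.0571 and 0.276), that of Cdkn2c also without any 1 MEF2A library (0.0716 to 0.0947). With the mean of the markers of other cell types as a covariate, 3 of the 26 mitosis genes were called (median 1.24). Summed macrophage markers were 199, 87.2 and 958 CPM in YAP5SA 1 to 3, and the mitosis sums were 735, 619 and 698 CPM. Such sums do not show which cells the mitosis RNA came from. The part of other cell types in the mitosis genes was not tested. The promoter of Cdk1 is shown for its CHR letters (TTTGAA or TTCAAA), the element through which cell cycle genes are switched, in capitals at -71 and -15. It is at chr10:69352913-69353162 on the minus strand and was chosen after the matches were seen.
Cdk1: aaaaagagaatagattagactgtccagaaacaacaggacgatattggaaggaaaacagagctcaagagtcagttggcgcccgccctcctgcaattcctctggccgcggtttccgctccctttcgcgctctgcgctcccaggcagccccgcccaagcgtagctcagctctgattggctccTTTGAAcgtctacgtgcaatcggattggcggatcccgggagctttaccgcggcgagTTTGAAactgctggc
The CHR letters were in 8 of 21 mitosis promoters (38.1%) and in 1663 of all 12323 (13.5%).

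**Figure D4:**
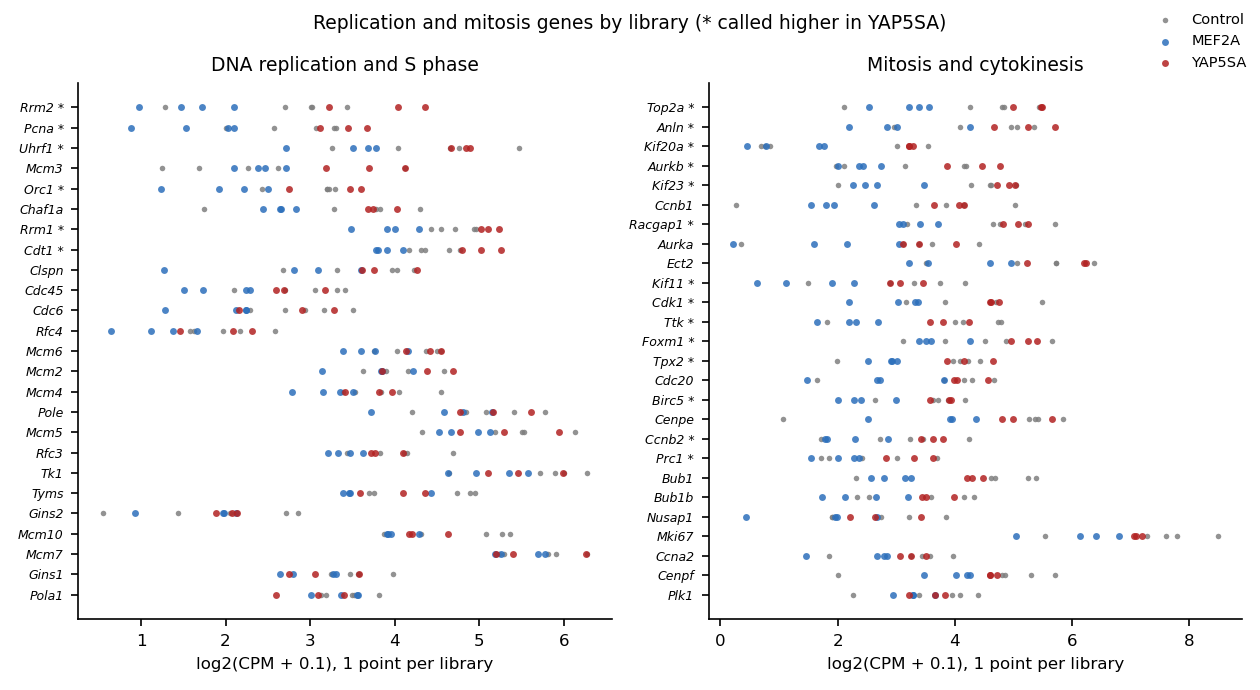
Each row is 1 replication gene (left) or mitosis gene (right), ordered by log2 fold change, and each point 1 library at log2(CPM + 0.1); red is YAP5SA, blue MEF2A and grey Control, and a star marks a gene called higher in YAP5SA. In 24 of 26 mitosis genes all red points lie to the right of all blue points, and the grey points spread over both.

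Part of the growth and signalling genes differed too. Of 12 imprinted growth genes 6 rose and 0 fell (median 0.87). By batch the median was 1.36 in batch 1 and 0.22 in batch 2, which holds 1 YAP5SA library. The zinc finger gene Zim1 was at 56.3, 27.4 and 34.4 CPM in YAP5SA and 3.59, 4.56, 2.59 and 2.98 CPM in MEF2A (3.53 ± 0.33, adjusted p = 6.15e-06). The noncoding RNAs Rian (2.09 ± 0.42, adjusted p = 0.00648) and Mirg (2.22 ± 0.32, adjusted p = 0.000291), both from the Dlk1-Dio3 domain of chromosome 12, rose, and Plagl1, a regulator of imprinted genes, was at 112, 151 and 57 CPM against 45.6, 49.5, 41.5 and 55.4 CPM (1.14 ± 0.28, adjusted p = 0.0111). These 4 kept their calls. In neuregulin, EGF and FGF signalling 4 of 26 rose and 3 fell (median 0.69), 26.9% called against 14.9% of all genes. The feedback inhibitor Spry1 was at 108, 73.3 and 72.8 CPM against 34.4, 33.7, 32.3 and 32.3 CPM (1.34 ± 0.21, adjusted p = 0.000726, 24.4% of exons shared with the antisense Gm42922). Insr, the insulin receptor, was lower (-1.08 ± 0.25, adjusted p = 0.00800, lost without YAP5SA 3, 0.0832). Of 16 AP-1 and immediate early genes 4 rose and 0 fell (median 1.38), of which Ier3 kept its call (2.08 ± 0.35, adjusted p = 0.00105) and Fos, at 51.5, 15.2 and 29.7 CPM against 6.53, 6.87, 2.11 and 3.04 CPM, lost it without YAP5SA 3 (2.81 ± 0.60, adjusted p = 0.00836; 0.0617 without it). Of 16 p53 targets 4 rose and 0 fell (median 0.56), none of which was called without YAP5SA 3: Bax, Phlda3, Cdkn1a and Zmat3 rose by 0.82, 1.40, 1.30 and 1.03, and their adjusted p was 0.0725, 0.195, 0.119 and 0.227 then. Leaving out YAP5SA 1 also ended the calls of Phlda3 (0.0692), Cdkn1a (0.207) and Zmat3 (0.107), as did leaving out some MEF2A libraries (MEF2A 2 for all 3: 0.0561, 0.0869 and 0.0878; MEF2A 4 for all 3: 0.0609, 0.0843 and 0.0716; MEF2A 3 for Cdkn1a and Zmat3: 0.0745 and 0.0916; MEF2A 1 for Zmat3: 0.0510). Among 19 cardiac transcription factors 2 rose and 2 fell (21.1% called, against 14.9% of all genes), and none of the 4 kept its call.

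Cardiomyocyte markers were abundant in both groups. All 10 cardiomyocyte markers were detected, and summed they took 34035, 39471 and 27151 CPM in YAP5SA, 80013 to 82345 CPM in MEF2A and 50276 to 83259 CPM in Controls. Of the 10, 8 fell and 0 rose (median -0.84), and in bulk nuclei fewer cells of a type and less RNA per cell cannot be told apart. Among other cell types, 5 of 12 fibroblast markers rose (median 0.74), summed to 1487, 1678 and 2944 CPM in YAP5SA against 1210 to 1784 CPM in MEF2A. Ddr2, a collagen receptor, was at 143, 154 and 108 CPM against 48.4, 61.5, 56.3 and 45.2 CPM and kept its call (1.22 ± 0.24, adjusted p = 0.00314). Dcn, decorin, was at 55, 41.5 and 210.5 CPM against 27.9, 25.8, 36.9 and 25.1 CPM, high in YAP5SA 3 (1.77 ± 0.48, adjusted p = 0.0292; adjusted p = 0.348 without it and 0.0666 to 0.0897 without 1 MEF2A library), and 1 fibroblast marker was called without YAP5SA 3, where the median was 0.09. Macrophage markers summed to 199, 87.2 and 958 CPM in YAP5SA and 62.3 to 99.3 CPM in MEF2A, and 4 of 12 rose (median 2.48), none without YAP5SA 3 (median 0.77). C1qa, of complement, was at 18.3, 8.59 and 129.8 CPM against 4.84, 3.74, 5.23 and 3.71 CPM (3.42 ± 1.00, adjusted p = 0.0459), and its call was lost without any library but YAP5SA 2 (adjusted p from 0.0662 to 0.342). Of 12 endothelial markers 3 fell (median -0.49; 388, 412 and 270.0 CPM against 473 to 549), and none was called without YAP5SA 1 or without YAP5SA 3. No mural (9 tested), lymphocyte (9) or erythroid (6) marker was called by edgeR, against 1 mural marker higher and 0 of the others at an unadjusted p under 0.05 and by DESeq2.

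Of 9 epicardial, Schwann and adipose markers 3 rose and 1 fell. Wt1, a transcription factor of the epicardium, was at 85.1, 75.8 and 39.5 CPM in YAP5SA and 11, 13.5, 20.7 and 13.4 CPM in MEF2A, high in all 3 libraries and keeping its call (2.11 ± 0.29, adjusted p = 0.000191). The epicardial Krt19 (1.97 ± 0.48, adjusted p = 0.0107) and Upk3b (2.04 ± 0.55, adjusted p = 0.0197) lost theirs without YAP5SA 1 (adjusted p = 0.0815 and 0.0553) or YAP5SA 3 (0.0529 and 0.356), and Upk3b also without MEF2A 1 (0.0631) or MEF2A 2 (0.0654). The part of other cells in the raised matrix genes was not tested. With the covariate for other cell types 10 of 26 other matrix genes and 15 of 23 YAP and TAZ targets were called higher. Without YAP5SA 3 these counts were 5 and 12.

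Among the 7 libraries, the summed ribosomal protein genes and the summed MHC and complement genes were highest in YAP5SA 3. Of 33 ribosomal protein genes 9 rose and 0 fell (median 0.97), summed to 3255, 2182 and 6179 CPM in YAP5SA and 1783 to 2600 CPM in MEF2A, with Controls at 2318 to 4629 CPM, and none was called without YAP5SA 1 or YAP5SA 3. Of 20 interferon response genes and 15 MHC class I and complement genes none was called by edgeR (1 interferon gene lower at an unadjusted p under 0.05 and 0 of both lists by DESeq2). H2-D1, an MHC class I gene with close paralogs that can share its reads, was at 68.6, 30.2 and 546 CPM in YAP5SA and 37.2, 41.8, 76.7 and 46 CPM in MEF2A, with YAP5SA 3 alone above the MEF2A range by a wide margin and Controls at 25.7 to 1116 CPM, and the MHC and complement median turned from 1.58 to -1.67 without YAP5SA 3.

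**Figure D5:**
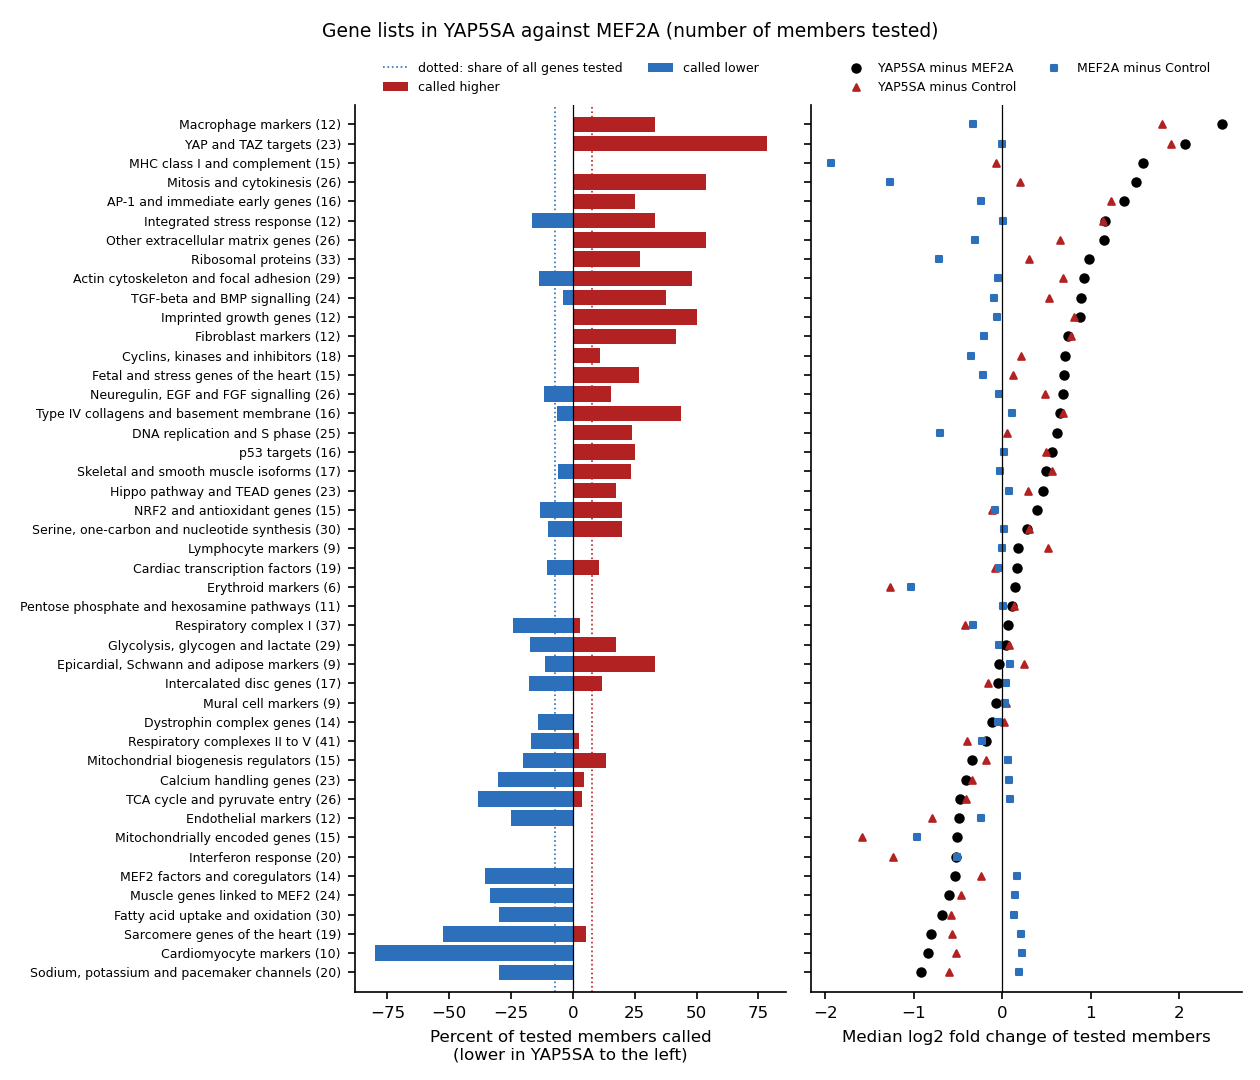
Left, the percent of each list's tested members called higher (red, right) or lower (blue, left) in YAP5SA, with the share of all genes tested as dotted lines (7.77% and 7.12%); right, each list's median log2 fold change for YAP5SA minus MEF2A (black) beside YAP5SA minus Control (triangles) and MEF2A minus Control (squares), which share the Controls. For mitosis genes the square, at -1.27, lies farther from 0 than the triangle, at 0.20, but the Controls varied widely there, with summed mitosis genes at 161.5 to 1138 CPM.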

How the data were processed

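Gene counts of 14 libraries were deposited as whole numbers in 1 table. Per the submitters' processing notes, STAR, limma, edgeR and the GRCm38 build were used; their versions, and which program and gene annotation gave the counts, are not given in the sources used here. Per the labels' protocols the libraries were polyA-selected and non-directional, so overlapping and antisense genes share reads. Counts were filtered with filterByExpr (minimum count 10, minimum total 15), scaled by TMM and fitted to all 14 libraries (5 Control, 4 MEF2A, 3 YAP5SA and 2 that received both viruses) with group and batch in edgeR 4.0.16 (R 4.3.3, robust quasi-likelihood test, Benjamini-Hochberg adjustment), and YAP5SA was contrasted with MEF2A. All groups shared 1 estimate of spread for each gene, and the common biological coefficient of variation over all genes was 0.503. No 2 columns were identical. CPM were computed from the deposited counts and TMM-scaled totals. The fit was also run on counts simulated from the means, depths and spread of these data. The simulation held no batch or sex differences, so it says nothing of their effect on the calls. Alternatives used DESeq2 1.42.0, limma 3.58.1 voom, other scalings and filters, other covariates and the removal of each library.

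Members and gene lists were chosen with earlier results of these data known. Genes named were Yap1 and Mef2a, the 15 largest rises and 15 largest falls among called genes with a mean log2 CPM of at least 1 and no overlap within a batch, and up to 4 called members of each list with the smallest p (the 2 most abundant where none was called). Chosen after their values were seen were Actg1, Ajuba, Ankrd1, Ccn1, Col4a2, Cox7a2, Crim1, Fblim1, Iqgap1, Itgb1, Ltbp1, Myh2, Ndufc1, Pdha1, Pdlim5, Pfkm, Pxn, Tln1, Vgll3 and Zyx. Sequences are RefSeq's, of GRCm38.p6, matched by symbol for 12323 of the 17987 genes. A few genes that this rule names are not reported here.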

Additional observations from a re-analysis of the deposited data

Results flagged for a closer look

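In 19 of 302 groups of values (151 genes named above, in 4 MEF2A and in 5 Control libraries), 1 library lay far from the others by Dixon's criterion on log2(CPM + 0.1), and chance alone gives about 1 in 20. Among MEF2A libraries, MEF2A 1 was low for Abcb4 (22.6 CPM) and high for Eci1 (187 CPM) and for Myh1 (0.381 CPM, with 0 in the other 3). MEF2A 3 was low for Actg1 (814 CPM) and high for Slc2a1 (8.88 CPM), and MEF2A 4 was high for Gal3st2c (24.1 CPM). None of these values lay in the range of the YAP5SA libraries except that of Actg1.

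Among Controls, Control 3 was low for Gal3st2c (7.06 CPM), Ltbp2 (15.5 CPM) and Thbs1 (0.245 CPM) and high for Mdh1 (422 CPM), Nfe2l2 (187 CPM) and Syt7 (359.6 CPM). Control 2, of whose counts 67.5% were mitochondrial, was low for Ajuba (15.1 CPM), Col4a3 (0 CPM) and Slc2a1 (1.43 CPM) and high for H2-D1 (1116 CPM). Control 1 was high for Ckm (67.7 CPM), Control 4 for Nebl (360.5 CPM), and Control 5 was low for Atp5h (228 CPM).

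The effect differed between the batches for 3 genes in a test of the difference itself (batch 1 minus batch 2, edgeR, adjusted p = 0.0420 for each), and batch 2 holds only YAP5SA 3. Apoe, of lipoproteins and abundant in macrophages, differed by -2.47, with 72.1, 66.5 and 454 CPM in YAP5SA and 99.1, 114, 122 and 129.8 CPM in MEF2A. Gm11346 differed by 6.71, with 2.03, 3.17 and 0.0501 CPM against 12.3, 7.43, 21.4 and 23.4 CPM. Tmem171 differed by 9.34, with 2.58, 3.96 and 0 CPM against 6.26, 4.49, 8.35 and 4.62 CPM; its size and that of Gm11346 depend on the prior count, since YAP5SA 3 had almost no reads of either.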

How the results depend on the processing

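Against 2679 genes called (1398 higher, 1281 lower), the counts were 1605 with library totals only (79 lower), 5098 with limma-voom quality weights (2746 higher, 2352 lower) and 1764 with the covariate for other cell types (820 higher). In batch 1 alone, where sex and virus cannot be told apart, 667 were called (386 higher, 281 lower). DESeq2 called 2105 higher. The fit without Controls 1 and 2, which had the highest mitochondrial shares, called 3968 (2182 higher, 1786 lower). With replicate number as a block in place of batch, 1573 were called (763 higher, 810 lower). The numbers did not pair the libraries: deviations of same-numbered libraries correlated at 0.0894, 0.0115 and 0.0614, and not every library correlated best with its own number. Leaving out 1 library gave 841 to 3870 called, 465 to 1844 higher and 376 to 2026 lower; without YAP5SA 3, 841 were called. The Yap1 difference turned to 0.017 with library totals only. The cause of these changes was not tested. Precision is limited by 3 and 4 libraries, 1 of them YAP5SA in batch 2, and by depth for genes near 0 CPM in 1 group, whose fold changes depend on the prior count.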
